A study of Mus musculus with 6 samples.

Results

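Hypoxia-linked angiogenic factors were described in a mouse colon carcinoma line, CT26.WT, as 10 genes chosen by symbol: Vegfa, Vegfb, Vegfc, Pgf, Pdgfa, Pdgfb, Adm, Angptl4, Ndrg1 and Ankrd37. Of these, 9 had a row among the 25407 gene rows of the deposited table, each on 1 row only, and Vegfc was not analysed here. All 9 passed the filter on low counts and were among the 16212 rows tested. With counts divided by 4, the weight per fragment inferred below, 7 of the 9 were among 13546 rows tested. Adm and Pdgfb were left out there for their low counts. The 3 treated libraries came from CT26.WT cells that had received Cu2O@AuMn@HA, NaHS and NIR together, and the 3 control libraries from CT26.WT cells of the control group, whose handling is not described further in the sources used here. By its name the particle holds copper oxide, gold and manganese. NaHS releases hydrogen sulfide, and NIR is near-infrared light, which the series title links to photothermal therapy. The particle, the donor and the light were only given together, so their parts cannot be told apart. The sources used here give no doses, no times and no oxygen level. Whether the 3 libraries of each group stem from separate cultures is not stated, so p-values measure only how far these samples spread, and that spread may be technical.

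When oxygen is short, the prolyl hydroxylases that mark the transcription factor HIF-1α for destruction slow down, and HIF binds short DNA elements with the core letters ACGTG or GCGTG near its target genes. The best known secreted product is VEGF-A, which binds receptors on endothelial cells and drives vessel growth. VEGF-B and placental growth factor (Pgf) are relatives that bind VEGF receptor 1, the PDGF chains act on mesenchymal cells and pericytes, and adrenomedullin (Adm) is a peptide hormone that widens vessels. Angptl4 inhibits lipoprotein lipase, and Ndrg1 and Ankrd37 encode intracellular proteins that are commonly read as hypoxia markers. Tumour cells release the secreted factors among these, while the receptors of the secreted factors sit mostly on the cells of the vessel wall.

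Treated libraries held 62328377 to 70323604 estimated counts and control libraries 71409968 to 81821380. On the first principal component (57.1% of the variance) all treated libraries lay on one side and all control libraries on the other, and control library 2 stood apart from the other control libraries on the next component. Of 10 epithelial markers, 3 had a mean of at least 1 FPKM (Krt8, Krt18 and Krt20), with a summed level of 225 to 238 FPKM in treated and 153 to 169.7 FPKM in control libraries, while the defining markers Epcam and Cdh1 reached at most 0.0270 and 0.0609 FPKM in treated libraries and were listed at 0 in control libraries. None of 9 endothelial markers reached 1 FPKM, and their sum was 0.277 to 0.376 FPKM in treated and 0.135 to 0.217 FPKM in control libraries. Fibroblast and pericyte markers, 4 of 9 of which reached 1 FPKM, summed to 70.3 to 79.3 FPKM in treated and 110.4 to 122 FPKM in control libraries. Leukocyte markers, 2 of 7 of which reached 1 FPKM, summed to 58.5 to 66.9 FPKM in treated and 30.9 to 31.2 FPKM in control libraries, nearly all of it Cd68, with Ptprc at most 0.0029 FPKM. The keratins differed in direction, with Krt18 at 163 FPKM in treated and 65.4 FPKM in control cells, and Krt20 at 53.4 to 61.8 FPKM in treated and 87.1 to 93.1 FPKM in control libraries. The part of these marker changes in the results was not tested.

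In treated cells 5 of the 9 genes rose (Ankrd37, Ndrg1, Pdgfa, Vegfa and Angptl4), 1 fell (Vegfb) and 3 did not pass the threshold (Pgf, Pdgfb and Adm). A gene was called at an adjusted p under 0.05 in edgeR's quasi-likelihood test. Over all rows tested, 23.0% rose and 23.5% fell, so 6 of the 9 genes were called in either direction, against 46.6% of all rows. Of the 9 genes, 4 rose at least 2-fold, against 9.87% of all rows, and 0 of the 9 fell at least 2-fold, against 5.18%. Levels are in FPKM, which divides fragments by the length of the transcript and the size of the library, so they can be compared between genes. In FPKM every treated library lay above every control library for 6 genes, against 30.4% of all rows, and below every control library for 2 genes, against 27.1% of all rows. Adm was the only one of the 9 whose groups overlapped. The median log2 fold change of the 9 genes was 0.51, against 0.06 over all rows tested. RNA was measured in bulk, so more RNA per cell and more cells with the RNA cannot be told apart.

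**Figure D1:**
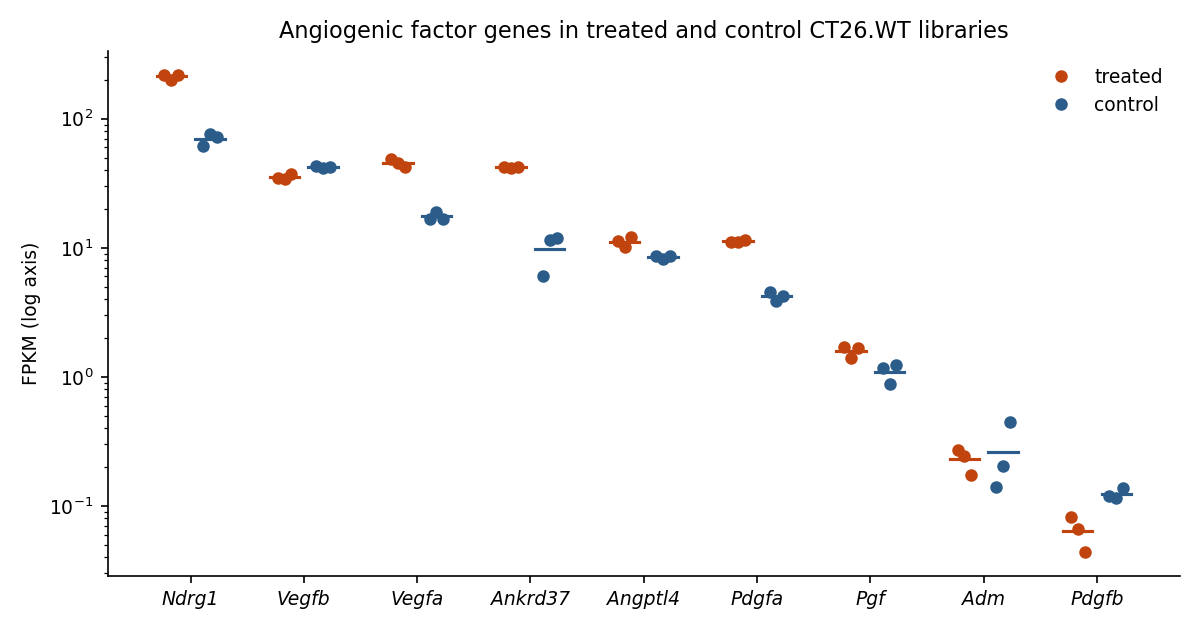
FPKM (log axis) of the 9 genes in each of the 3 treated (left, orange) and 3 control (right, blue) libraries, with the group mean as a line, ordered by mean level. Ankrd37, Ndrg1, Pdgfa and Vegfa stand well apart between groups, Vegfb is slightly lower in treated libraries, and the groups of Adm overlap.

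The letters before the start of a gene are shown so that each kind of response can be set beside its promoter: Ankrd37 and Vegfa, which rose, Vegfb, which fell, and Adm, which did not pass. Each sequence is the 250 bases before the 5′-most RefSeq start in GRCm38.p6, read 5′ to 3′ on the strand of the gene, with the letters ACGTG and GCGTG, on either strand, in capitals.
Ankrd37, chr8:45999851-46000100, minus strand: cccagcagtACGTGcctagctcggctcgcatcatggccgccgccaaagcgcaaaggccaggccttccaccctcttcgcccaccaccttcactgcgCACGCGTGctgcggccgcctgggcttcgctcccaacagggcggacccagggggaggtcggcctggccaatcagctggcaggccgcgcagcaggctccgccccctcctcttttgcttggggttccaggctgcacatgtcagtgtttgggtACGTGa
Vegfa, chr17:46032378-46032627, minus strand: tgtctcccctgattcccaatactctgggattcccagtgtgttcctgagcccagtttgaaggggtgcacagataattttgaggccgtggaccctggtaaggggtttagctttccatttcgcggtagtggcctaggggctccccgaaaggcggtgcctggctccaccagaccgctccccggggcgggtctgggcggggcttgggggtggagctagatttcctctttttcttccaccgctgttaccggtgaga
Vegfb, chr19:6987652-6987901, minus strand: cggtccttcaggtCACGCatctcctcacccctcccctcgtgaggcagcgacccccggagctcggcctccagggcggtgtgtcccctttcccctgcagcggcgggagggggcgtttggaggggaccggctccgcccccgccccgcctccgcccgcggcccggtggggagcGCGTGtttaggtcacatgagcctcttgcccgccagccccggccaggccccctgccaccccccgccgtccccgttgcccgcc
Adm, chr7:110627407-110627656, plus strand: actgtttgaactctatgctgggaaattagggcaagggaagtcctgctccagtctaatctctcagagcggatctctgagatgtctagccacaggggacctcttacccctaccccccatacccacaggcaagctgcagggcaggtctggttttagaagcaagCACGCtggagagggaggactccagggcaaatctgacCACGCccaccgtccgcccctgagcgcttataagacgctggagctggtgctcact

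Ankrd37 held ACGTG 2 times, starting at positions -241 and -6 counted back from the start, and GCGTG 2 times, at -155 on the opposite strand and at -152, where both matches share letters. Vegfb and Adm each held GCGTG 2 times and no ACGTG, and this window of Vegfa held neither. Vegfa, Pgf and Pdgfa have a second start in the table, and before that of Vegfa the 250 bases held GCGTG at -218 and, on the opposite strand, ACGTG at -211, while those of Pgf and Pdgfa held neither. Of those Vegfa bases, 67 lie in an exon of Vegfa itself, and both matches are within that exon. The hypoxia response element described for Vegfa lies further upstream than these 250 bases. Of 27025 RefSeq promoters of this length, 38.6% held at least 1 match to either core, 16.5% held ACGTG, and 2.65% held 4 or more matches. The limit of 4 is the count of Ankrd37 itself, and the promoters were not matched for GC content, so these shares are a description only. Pgf and Pdgfa, with 1 GCGTG each, also had a promoter in the table, and their sequences are not printed because GENCODE M21 exons fill most of the window. Of the Ankrd37 bases above, 17 lie in an exon of Ankrd37 itself, and whether a match falls within them was not checked. All 6 windows before the 5′-most start held the GC box letters GGGCGG, on either strand, as did 8907 of the 27025 promoters. Promoters of the other 3 genes were not used here. A match of letters is a description and not a binding site.

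**Figure D2:**
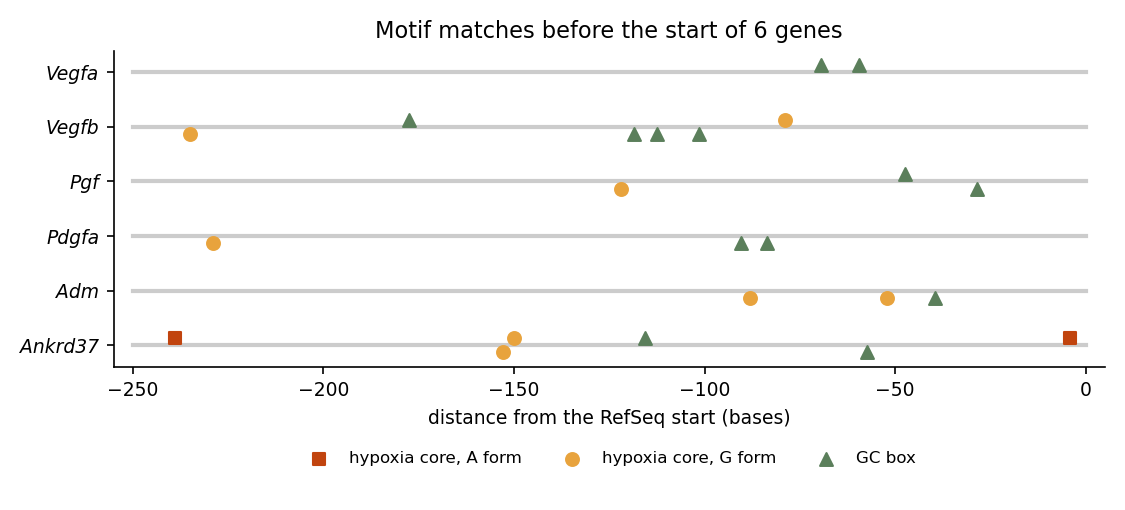
Matches to ACGTG (hypoxia core, A form), GCGTG (hypoxia core, G form) and GGGCGG (GC box) in the 250 bases before the 5′-most RefSeq start of 6 genes, with the distance from the start in bases on the horizontal axis. Symbols above a line are on the strand of the gene and those below it on the opposite strand. Among these 6 windows, that of Ankrd37 holds the A form, at 2 places.

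Among the growth factors that act on VEGF receptors, Vegfa rose and Vegfb fell. Vegfa (ENSMUSG00000023951, chromosome 17, 46327919 to 46343295, minus strand, in the coordinates of the deposited table, whose build is not given and is not that of GRCm38) stood at 48.96, 45.2 and 42.5 FPKM in treated libraries 1 to 3, against 16.7, 19.1 and 16.8 FPKM in control libraries 1 to 3. Every treated library lay far above every control library, and libraries of a group lay close together. The log2 fold change was 1.34 ± 0.09 (SE), or 2.53-fold, with an edgeR adjusted p of 4.0e-06, and it ranged from 1.27 to 1.48 over 21 alternative settings. Ordered from the highest fold change down, Vegfa was at place 1419 of 16212 rows.

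The protein of Vegfb (ENSMUSG00000024962, chromosome 19, 6959841 to 6965019, minus strand) is better known for supporting cell survival than for vessel growth. The gene stood at 34.5, 34.3 and 37.1 FPKM in treated libraries, against 42.7, 41.8 and 41.9 FPKM in control libraries. All treated values were lower, by a small margin, and the log2 fold change was -0.29 ± 0.08 (SE; adjusted p = 0.0118). The call was lost without treated library 1 (adjusted p = 0.0546), without both libraries numbered 2 (0.0622), with upper-quartile scaling (0.0927) and with a block for the replicate number (0.0521). Its direction was lower in all 21 alternative settings. Pgf (ENSMUSG00000004791, chromosome 12, 85213409 to 85224564, minus strand), which was first found in placenta, stood at 1.70, 1.39 and 1.68 FPKM in treated libraries, against 1.16, 0.882 and 1.24 FPKM in control libraries. The groups did not overlap, yet the log2 fold change of 0.51 ± 0.19 (SE) did not pass (unadjusted p = 0.025, adjusted p = 0.0529). With a correction for GC content it passed, at 0.64 (adjusted p = 0.0140), and in all it passed in 8 of 20 alternatives.

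The balance of these genes differed between the groups, with no overlap of the Vegfa shares and no test beyond those of the single genes. In FPKM, Vegfa made up 57.5%, 55.9% and 52.3% of the sum of Vegfa, Vegfb and Pgf in treated libraries, against 27.5%, 30.9% and 28.1% in control libraries. The ratio of Vegfa to Vegfb was 1.29 ± 0.138 in treated cells and 0.416 ± 0.0355 in control cells (SD, n = 3 each), so Vegfa was the more abundant of both in every treated library and the less abundant in every control library. The sum of all 3 genes was 82.5 ± 2.35 FPKM in treated and 60.8 ± 0.909 FPKM in control cells. Pgf took 1.93% ± 0.183 of it in treated and 1.81% ± 0.336 in control cells, a difference within the spread. Vegfd, another ligand of VEGF receptors and named after its values were seen, is not in this sum. Vegfd stood at 0.713 ± 0.0731 FPKM in treated and 1.25 ± 0.0916 FPKM in control cells. Its log2 fold change was -0.84 ± 0.20 (SE, edgeR adjusted p = 0.00693).

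**Figure D3:**
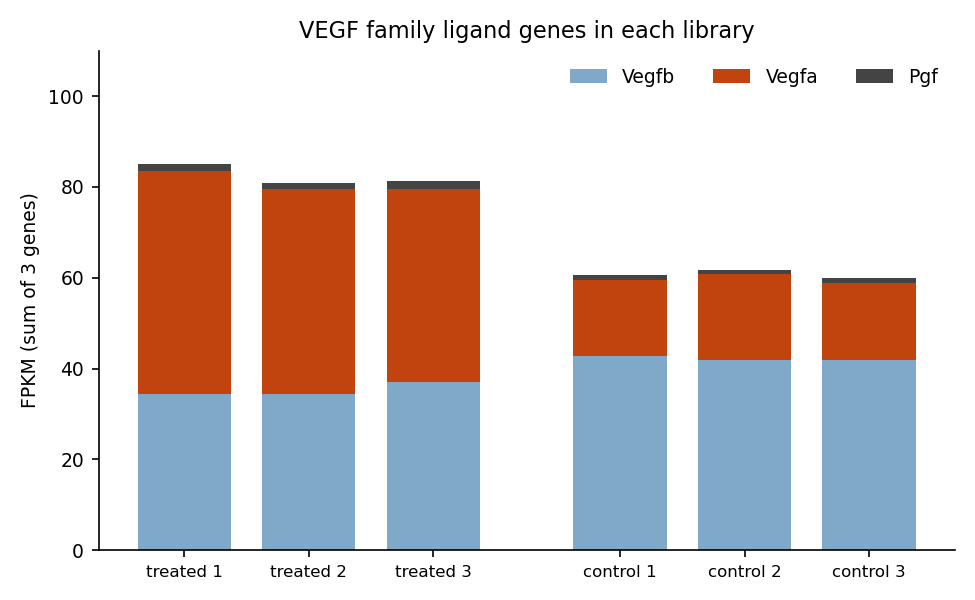
Stacked FPKM of Vegfb (bottom), Vegfa (middle) and Pgf (top) in treated libraries 1 to 3 (left) and control libraries 1 to 3 (right). The Vegfa part is 42.5 to 48.96 FPKM in treated and 16.7 to 19.1 FPKM in control libraries, while the Vegfb part is 34.3 to 37.1 FPKM in treated and 41.8 to 42.7 FPKM in control libraries.

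The PDGF chains, which pair into dimers that call in fibroblasts and pericytes, were represented mainly by Pdgfa. Pdgfa (ENSMUSG00000025856, chromosome 5, 138961769 to 138983125, minus strand) stood at 11.1, 11.1 and 11.6 FPKM in treated libraries, against 4.55, 3.85 and 4.22 FPKM in control libraries. Treated libraries were nearly equal and all above the control libraries, with a log2 fold change of 1.38 ± 0.10 (SE), or 2.61-fold (adjusted p = 5.1e-06, range 1.24 to 1.51 over 21 alternatives). Pdgfb (ENSMUSG00000000489, chromosome 15, 79880075 to 79899178, minus strand) stood at 0.0822, 0.0658 and 0.0441 FPKM in treated libraries, against 0.120, 0.116 and 0.137 FPKM in control libraries. These are 14 to 24 estimated counts in treated and 40 to 43 in control libraries. At a weight of about 4 estimated counts per sequenced fragment, which is inferred and not stated in the sources, they stand for about 3.5 to 10.8 fragments. All treated values of Pdgfb were lower, with a log2 fold change of -0.97 ± 0.48 (SE) that did not pass (adjusted p = 0.124). The ratio of Pdgfa to Pdgfb was 135, 168 and 262 in treated libraries, against 37.9, 33.2 and 30.9 in control libraries, and its lower term rests on few fragments.

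Ankrd37, which encodes a small ankyrin repeat protein, had the largest fold change of the 9 genes. Ankrd37 (ENSMUSG00000050914, chromosome 8, 46449939 to 46452904, minus strand) stood at 42.6, 41.6 and 42.0 FPKM in treated libraries, against 6.09, 11.4 and 11.95 FPKM in control libraries. The treated libraries were nearly equal, while control library 1 was well below the other control libraries, and the groups did not overlap. The log2 fold change was 2.06 ± 0.22 (SE), or 4.16-fold (adjusted p = 5.5e-05), and it was 1.78 without control library 1. Ordered from the highest fold change down, it was at place 517 of 16212 rows. Its coordinates overlap Lrp2bp by 565 bases and Ufsp2 by 57 bases, both on the opposite strand, and whether the counting used the strand is not given in the sources used here. Lrp2bp stood at 0.104 ± 0.0276 FPKM in treated and 0.0115 ± 0.0111 FPKM in control cells (SD, n = 3 each), and Ufsp2 at 5.71 ± 1.49 FPKM in treated and 3.01 ± 0.0827 FPKM in control cells. Ndrg1 likewise overlaps the noncoding gene Gm2895 by 318 bases, at 0.183 ± 0.0384 FPKM in treated and 0.0485 ± 0.0151 FPKM in control cells.

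Ndrg1, a stress-response protein of the cytoplasm that is also induced by iron chelators and repressed by MYC family proteins, was the most abundant of the 9 genes in both groups. Ndrg1 (ENSMUSG00000005125, chromosome 15, 66801167 to 66841489, minus strand) stood at 219.7, 200.7 and 218 FPKM in treated libraries, against 61.3, 76.2 and 72.1 FPKM in control libraries. The groups were far apart, with a log2 fold change of 1.57 ± 0.11 (SE), or 2.97-fold (adjusted p = 4.0e-06). By mean FPKM it ranked 295 of 16212 rows in treated and 834 in control cells. Angptl4, which is also a target of the fatty acid receptors PPAR, rose by a smaller margin. Angptl4 (ENSMUSG00000002289, chromosome 17, 33992724 to 34000804, minus strand) stood at 11.3, 10.1 and 12.1 FPKM in treated libraries, against 8.67, 8.15 and 8.65 FPKM in control libraries. All treated values were higher, with a log2 fold change of 0.36 ± 0.10 (SE; adjusted p = 0.0116), and without control library 3 the call was lost (0.35, adjusted p = 0.0537).

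Adm was rare in both groups. Adm (ENSMUSG00000030790, chromosome 7, 110226868 to 110229027, plus strand) stood at 0.274, 0.246 and 0.173 FPKM in treated libraries, against 0.141, 0.203 and 0.447 FPKM in control libraries, or 21 to 31 estimated counts in treated and 19 to 56 in control libraries. Control library 3 was the highest and control library 1 the lowest of all 6 libraries, so the groups overlapped. The log2 fold change of -0.26 ± 0.55 (SE; adjusted p = 0.737) turned to 0.32 without control library 3. An antisense gene, Gm28863, covers all 2160 bases of Adm in the deposited coordinates, at 0.0511 ± 0.0885 FPKM in treated cells and listed at 0 in every control library. A long noncoding gene on the other strand likewise overlaps Pdgfa (6330403L08Rik, at 1.77 ± 0.0166 FPKM in treated and 1.42 ± 0.181 FPKM in control cells) and Pdgfb (Gm41361, at 0.0265 ± 0.0460 FPKM in treated and 0.189 ± 0.0205 FPKM in control cells).

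**Figure D4:**
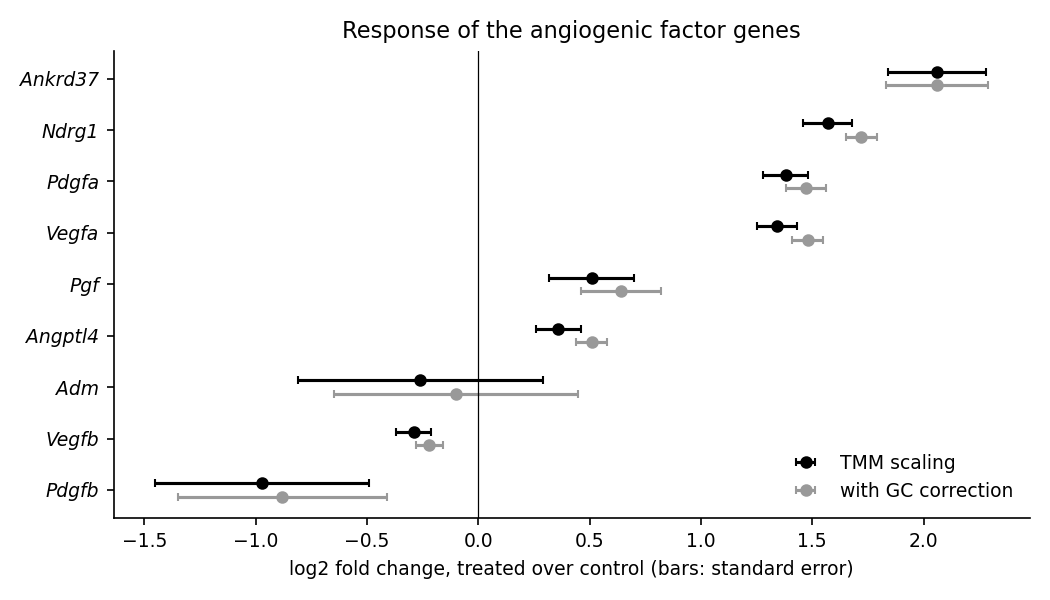
Log2 fold change of the 9 genes, treated over control, with the standard error as bars, in the test with TMM scaling (black) and with the GC correction (grey). With TMM scaling 4 genes lie between 1.34 and 2.06, Pgf and Angptl4 at 0.51 and 0.36, and Vegfb, Adm and Pdgfb below 0, and the correction moved no gene across 0.

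In order of level, treated cells had Ndrg1 first, then Vegfa and Ankrd37, whose ranges overlapped, then Vegfb, then Pdgfa and Angptl4, whose ranges overlapped, and then Pgf, Adm and Pdgfb. Control cells had Ndrg1, Vegfb, Vegfa, then Ankrd37 and Angptl4, whose ranges overlapped, and then Pdgfa, Pgf, Adm and Pdgfb. All other neighbours in these orders had ranges that did not overlap. Transcripts of the 9 genes were rich in GC (median 55.6%, against 50.9% over all rows tested), and across 15760 rows fold changes fell with GC content (Spearman -0.26; genes are no independent replicates). With the GC correction 6 of the 9 genes rose and 1 fell, against 24.1% and 26.1% of all rows.

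Over the 6 libraries, the rows with a mean of at least 5 FPKM whose log2(FPKM + 1) followed Vegfa most closely were Six5, Hbegf, Txnip, Haghl and Mustn1, with Pearson r of 0.9992, 0.9989, 0.9987, 0.9987 and 0.9985. Hbegf, a growth factor of the EGF family, stood at 61.1 ± 3.83 FPKM in treated and 20.7 ± 1.57 FPKM in control cells (SD, n = 3 each). Ndrg1 was at place 56 with r of 0.9926, and Pdgfa and Ankrd37 at places 336 and 494. The points are the same 6 libraries in 2 separate groups, and 294 of 6167 rows reached an r of at least 0.98, so the order is a description only.

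The genes around these factors were taken from lists by known role, without the 10 genes themselves. These lists were chosen with earlier results of these data known. Of 25 other HIF target genes tested, 20 rose and 1 fell (Pfkfb3, named after its value was seen), against 23.0% and 23.5% of all rows. Their median log2 fold change was 1.13, against 0.06 over all rows. Pfkfb3 was rare, at 0.0844 ± 0.0426 FPKM in treated and 0.209 ± 0.0339 FPKM in control cells. The mitophagy receptor gene Bnip3 stood at 114 ± 16.1 FPKM in treated and 12.7 ± 1.5001 FPKM in control cells (log2 fold change 3.12 ± 0.11 SE), and Fam162a and Higd1a, both of mitochondria, had log2 fold changes of 1.5 ± 0.07 and 1.46 ± 0.08. Zfp395 stood at 16.2 ± 1.10 FPKM in treated and 16.8 ± 1.24 FPKM in control cells and did not pass (adjusted p = 0.48). The median of the 9 genes, which include Ndrg1 and Ankrd37 with their intracellular proteins, was 0.51.

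Of 9 receptors and co-receptors of these ligands tested, 1 rose and 2 fell, against 23.0% and 23.5% of all rows. Their median log2 fold change was 0.06. With the GC correction 2 rose and 1 fell, against 24.1% and 26.1% of all rows. Ramp3, a partner of the adrenomedullin receptor, fell to 8.61 ± 0.951 FPKM in treated cells, against 20.4 ± 0.693 FPKM in control cells (log2 fold change -1.28 ± 0.12 SE, adjusted p = 2.3e-05). Ackr3, a scavenging receptor that also takes up adrenomedullin, rose to 1.18 ± 0.122 FPKM in treated cells, against 0.636 ± 0.0739 FPKM in control cells (adjusted p = 0.00530). Pdgfrb stood at 7.00 ± 0.378 FPKM in treated and 8.24 ± 0.751 FPKM in control cells, and its call (log2 fold change -0.27 ± 0.10 SE, adjusted p = 0.0437) was lost in 17 of 21 alternatives, among them without control library 2 or 3 or treated library 1, 2 or 3 (adjusted p = 0.0671 to 0.121). The VEGF co-receptor Nrp2 stood at 8.14 ± 0.716 FPKM in treated and 7.31 ± 0.309 FPKM in control cells (adjusted p = 0.212, or 0.0254 with the GC correction). Kdr, VEGF receptor 2, chosen after its values were seen, was listed at 0 in 5 of the 6 libraries.

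Of 13 other angiogenic ligands tested, 5 rose and 2 fell, against 23.0% and 23.5% of all rows, with a median log2 fold change of 0.45. Ccn1, a matrix protein that binds integrins on endothelial cells, stood at 388 ± 34.7 FPKM in treated and 119 ± 24.2 FPKM in control cells (log2 fold change 1.67 ± 0.16 SE), while its relative Ccn2 stood at 44.3 ± 5.01 FPKM in treated and 73.7 ± 5.55 FPKM in control cells (-0.77 ± 0.10). The ephrin gene Efna1 rose by 0.72 ± 0.11, and Efnb2 stood at 4.94 ± 0.720 FPKM in treated and 4.81 ± 0.791 FPKM in control cells (adjusted p = 0.981). Of 14 angiogenesis inhibitors, 3 rose and 2 fell, against the same 23.0% and 23.5% of all rows, with a median of 0.09. Serpinf1, which encodes the antiangiogenic factor PEDF, fell to 20.1 ± 0.930 FPKM in treated cells, against 66.0 ± 2.89 FPKM in control cells (log2 fold change -1.75 ± 0.08 SE, adjusted p = 9.6e-07). Timp1, an inhibitor of matrix proteases, rose by 0.68 ± 0.07, and the matrix protein gene Thbs1 rose by 0.45 ± 0.09. Isg15 stood at 59.6 ± 2.25 FPKM in treated and 62.7 ± 4.47 FPKM in control cells (adjusted p = 0.344).

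Of 14 regulators of Vegfa (transcription factors, the oxygen-sensing hydroxylases and ubiquitin ligase part that act on HIF, and RNA-binding proteins), 7 rose and 4 fell. Over all rows 23.0% rose and 23.5% fell. The median log2 fold change of these regulators was 0.28. Zfp36l1, which promotes decay of mRNAs with AU-rich elements, rose by 1.08 ± 0.12 (SE), the AP-1 subunit gene Jun rose by 0.75 ± 0.09, and the prolyl hydroxylase gene Egln2 fell by 0.84 ± 0.09. Another prolyl hydroxylase gene, Egln1, was counted with the other HIF target genes and chosen after its value was seen. Egln1 rose to 65.3 ± 4.67 FPKM in treated cells, against 24.7 ± 0.312 FPKM in control cells (log2 fold change 1.37 ± 0.08 SE, edgeR adjusted p = 2.0e-06). Zfp36 stood at 9.79 ± 0.733 FPKM in treated and 7.98 ± 1.41 FPKM in control cells (adjusted p = 0.162), and passed in 6 of 21 alternatives, among them without control library 2 (0.42, adjusted p = 0.0147). Hif1a, chosen after its value was seen, stood at 3.70 ± 1.15 FPKM in treated and 2.06 ± 0.383 FPKM in control cells, with a log2 fold change of 0.80 ± 0.21 (adjusted p = 0.0111) that was 0.16 with the GC correction (adjusted p = 0.307). Of 7 genes of ligand processing and release, 3 rose and 2 fell, against the same 23.0% and 23.5%, with a median of 0.32. Plat, a protease that activates the PDGF relative PDGF-C, rose by 0.93 ± 0.10, Hpse, which frees heparin-bound factors from the matrix, rose by 0.35 ± 0.07, and the convertase gene Pcsk7 fell by 0.42 ± 0.10. Furin, a convertase of growth factor precursors, stood at 13.8 ± 1.30 FPKM in treated and 12.97 ± 0.305 FPKM in control cells (adjusted p = 0.658).

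Around Angptl4, 1 of 9 tested partners and PPAR targets rose and 2 fell, against 23.0% and 23.5% of all rows. Their median log2 fold change was 0.18. With the GC correction 4 rose and 2 fell, against 24.1% and 26.1% of all rows. The receptor gene Ppard rose by 0.51 ± 0.10 (SE), the fatty acid oxidation gene Cpt1a fell by 0.68 ± 0.07, and Angptl6 fell by 0.52 ± 0.11. Plin2, a lipid droplet coat protein, stood at 100.6 ± 4.58 FPKM in treated and 86.7 ± 4.19 FPKM in control cells (adjusted p = 0.12, or 0.0168 with the GC correction). Around Ndrg1, 3 of 6 tested genes rose and 2 fell, against the same 23.0% and 23.5% of all rows, with a median of 0.02. Egr1, an immediate early transcription factor, rose by 1.48 ± 0.11, Ndrg4, a relative of Ndrg1 at a mean of 0.701 FPKM in treated and 0.244 FPKM in control cells, rose by 1.46 ± 0.27, and Trp53 fell by 0.75 ± 0.10. Myc stood at 60.8 ± 4.06 FPKM in treated and 72.6 ± 9.97 FPKM in control cells and did not pass (adjusted p = 0.0594), but passed without control library 1 (log2 fold change -0.41, adjusted p = 0.0137).

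**Figure D5:**
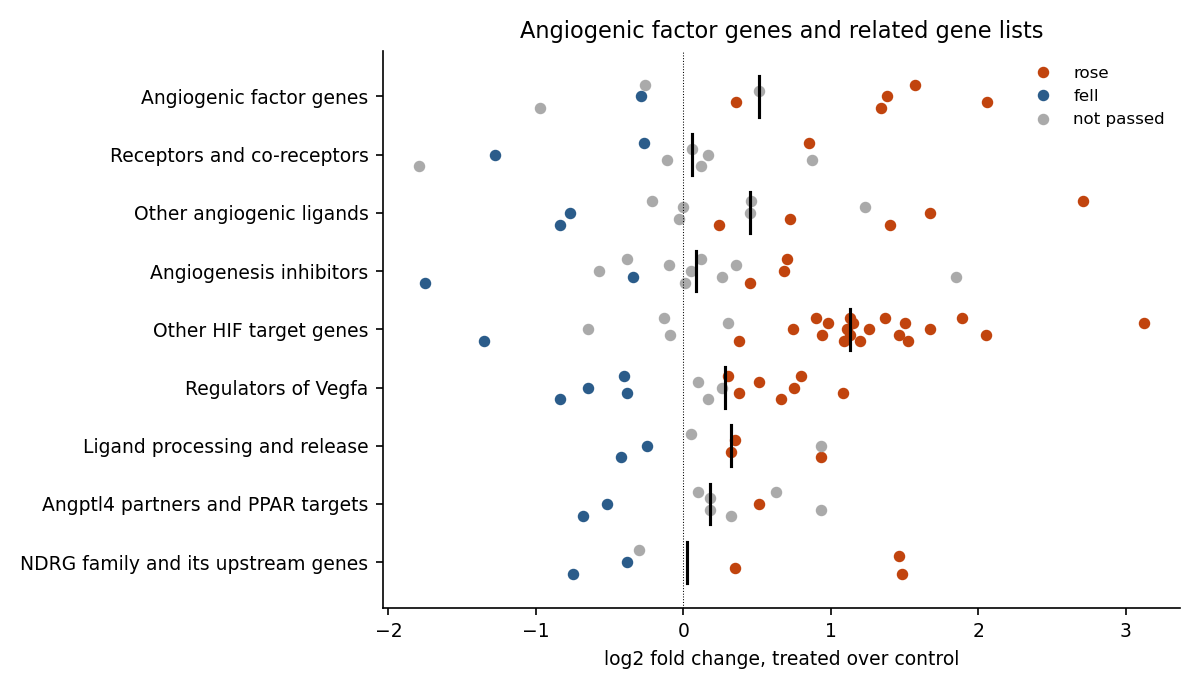
Log2 fold change, treated over control, of each tested gene of the angiogenic factors (top) and of 8 related lists, coloured by its call, with the list median as a black line. The other HIF target genes have the highest median, 1.13, and the 9 angiogenic factors a median of 0.51.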

How the data were processed

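RNA-seq of 6 libraries was analysed from the deposited gene table. Per the labels' protocols, mRNA was selected with oligo-dT beads and libraries were stranded with dUTP. Tools listed in the submitters' processing notes, without roles, are StringTie 2.1.6, HISAT2 2.2.1, cutadapt 1.9, edgeR and DESeq2. The authors deposited FPKM and counts, per the file headers. The deposited counts are whole numbers, called estimated counts here because of their values. The ratio of count to FPKM was constant per gene (median coefficient of variation 0.0361% over 10985 rows), and 4054 values were exactly 4, while counts of 3 and 5 averaged 2539.5 values. A weight of about 4 per fragment was inferred from this excess and is not stated in the sources used here. Genome build, annotation and strand setting were not given in the sources used here, and no gene of the 9 has its GRCm38 start.

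Estimated counts of all rows were tested with edgeR 4.0.16 (R 4.3.3; quasi-likelihood, TMM, default filter on low counts, 2-sided, Benjamini-Hochberg over 16212 rows, threshold 0.05). Standard errors are the absolute log2 fold change over the square root of F. FPKM values are mean ± SD, n = 3. Alternatives were DESeq2 1.42.0, limma 3.58.1 on log2(FPKM + 1), other scalings and filters, a GC correction (loess span 0.4 on GENCODE M21 transcripts, which gave GC for 97.2% of rows tested), a replicate block and libraries left out. On simulated data for treated over control (15762 genes), edgeR recovered 70% of 100 2-fold and 87.2% of 94 4-fold changes and called 4 unchanged genes. Far fewer genes changed in that simulation than were called in the real libraries, so its rates need not hold for them. The members and lists were chosen with earlier results of these data known. Genes named are the 9, the 3 of each list with the smallest p among those past the threshold, its most abundant gene that did not pass, the 5 rows most like Vegfa, and those marked. Promoters are RefSeq's.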

Additional observations from a re-analysis of the deposited data

How the results depend on the processing

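Ankrd37, Ndrg1, Pdgfa and Vegfa kept their direction and call in all 21 alternatives. The number of the 9 genes that rose stayed within 1.5 times of 5 in each, and the number that fell was 0 with upper-quartile scaling, without both libraries numbered 2 and with the replicate block, 2 in limma on log2(FPKM + 1) with no filter, and 0 to 1 with 1 library left out (0 without treated library 1). Not all 9 genes were tested in every alternative. Adm and Pdgfb were left out, and 7 tested, at a mean FPKM of at least 1 and with counts divided by 4. The same 7 were tested in limma on log2(FPKM + 1) and log2(FPKM + 0.1) with that minimum. At a mean FPKM of at least 5, Pgf was left out too and 6 were tested. Vegfb stood at -0.17 with upper-quartile scaling, -0.25 without both libraries numbered 2 and -0.35 to -0.27 with 1 library left out. With the replicate block it stood at -0.29 (adjusted p = 0.0521). Whether the numbers 1 to 3 pair the libraries is not stated. Same-numbered libraries had correlations of their deviations of 0.0399, -0.103 and 0.00645, and not every library correlated best with its own number. Such weak correlations show no pairing but cannot exclude it. The block called 3070 rows higher and 3205 lower, against 3735 and 3813. Pgf passed at 0.58 with library totals only, 0.63 with upper-quartile scaling, 0.57 at a mean FPKM of at least 1, 0.31 and 0.51 in limma on log2(FPKM + 1) and log2(FPKM + 0.1), 0.52 with counts divided by 4, 0.64 with the GC correction and 0.65 with the replicate block and GC correction. Pdgfb passed at -0.08 in limma with no filter. Angptl4 ran from 0.28 to 0.42 with 1 library left out. Adm turned to 0.04 with the replicate block and GC correction, and ran from -0.58 to 0.32 with 1 library left out. Among other genes that did not pass, Efnb2 turned to -0.0012 with DESeq2 and with its size factors and to -0.16 without both libraries numbered 2 (-0.12 to 0.10 with 1 left out), Isg15 to 0.02 at a mean FPKM of at least 5 and with upper-quartile scaling and to 0.05 with the GC correction, with and without the replicate block, and Zfp395 to 0.04 without both libraries numbered 2, with upper-quartile scaling and at the FPKM minimum of 5. At a mean FPKM of at least 5, 2217 rows rose and 2193 fell, of 6168 tested, so fewer genes were tested. Upper-quartile scaling moved the median of all rows to 0.18, against 0.06, and the share of calls that rose to 60.8%, against 49.5%. The cause of the other changes was not tested. Adm and Pdgfb had the fewest counts of the 9 genes, 14 to 56 estimated counts per library, and the part of depth in their results was not tested.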

Other observations

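The annotation in the deposited table gives the term response to hypoxia to 5 of the 9 angiogenic factor genes (Adm, Angptl4, Pgf, Vegfa and Vegfb), against 0.864% of all rows tested. Of these 5, Vegfa and Angptl4 rose, Vegfb fell, and Adm and Pgf did not pass. Ankrd37, Ndrg1 and Pdgfa, which all rose at least 2-fold, do not carry the term. The term growth factor activity was held by 5 genes (Pdgfa, Pdgfb, Pgf, Vegfa and Vegfb), of which Pdgfa and Vegfa rose and Vegfb fell, against 0.475% of rows tested. The 2 genes of intracellular proteins, Ndrg1 and Ankrd37, held neither term. The members were chosen as hypoxia-linked angiogenic factors, so a high share with either term follows from that choice.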
